A study of Mus musculus with 6 samples.

Results

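The genes described here are the nuclear-encoded subunits of mitochondrial respiratory complexes III and IV and of ATP synthase (complex V), together with somatic cytochrome c. They were taken by name, as 39 listed mouse symbols, with no threshold on a measured value. Of the 52740 gene rows of the count table, 40 carried these symbols, since Atp5o stood on 2 rows, of which the second held at most 10.2 counts in a library and was not tested. The 39 genes were 9 of complex III, 14 of complex IV with its tissue isoforms, 15 of complex V and Cycs. The study used C2C12, a mouse myoblast cell line that can form myotubes in culture, kept in medium with 10% fetal bovine serum. The siCOX7A2L cells (3 libraries) were transfected with an siRNA against Cox7a2l, siCTRL cells (3 libraries) with a random control siRNA, and both with the same lipid reagent. Cox7a2l encodes a protein that joins complexes III and IV into supercomplexes. Each library was made from 2 µg of total RNA depleted of ribosomal RNA. The time after transfection, the siRNA sequence and whether the 3 libraries of a group came from separate cultures are not stated in the labels, so p-values measure the spread between these libraries, which may be technical.

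In the inner mitochondrial membrane, complex III passes electrons from ubiquinol to cytochrome c, a small mobile haem protein, and complex IV passes them from cytochrome c to oxygen. Both move protons across the membrane, and complex V uses the return of these protons to make ATP. Most subunits of the 3 complexes are encoded in the nucleus, while a few core subunits are encoded by mitochondrial DNA, so each complex needs transcripts from both genomes. The transcription factor NRF-1, named nuclear respiratory factor for this role, is known to bind the promoters of many of the nuclear subunit genes.

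Promoters of 3 members are shown because they carry the NRF-1 motif and belong to genes with different fold changes: Cox6a1 and Atp5k were among the members with the highest fold changes and Atp5h lay near the middle. Each line gives the 250 bases before the RefSeq gene start on build GRCm38.p6, in the direction of transcription, with the motif in capitals, which reads GCGCA, any base, GCGC on either strand. Cox6a1 lies at chr5:115348959-115349208 (minus strand), with motifs beginning 162 and 117 bases before the start, Atp5k at chr5:108434400-108434649 (minus strand), with a motif beginning 50 bases before it, and Atp5h at chr11:115419920-115420169 (minus strand), with a motif beginning 141 bases before it.
Cox6a1: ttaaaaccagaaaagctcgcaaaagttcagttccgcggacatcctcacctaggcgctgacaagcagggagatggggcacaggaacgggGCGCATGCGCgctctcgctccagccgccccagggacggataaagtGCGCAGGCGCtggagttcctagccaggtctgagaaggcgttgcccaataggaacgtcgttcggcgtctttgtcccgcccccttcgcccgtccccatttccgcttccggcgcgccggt
Atp5k: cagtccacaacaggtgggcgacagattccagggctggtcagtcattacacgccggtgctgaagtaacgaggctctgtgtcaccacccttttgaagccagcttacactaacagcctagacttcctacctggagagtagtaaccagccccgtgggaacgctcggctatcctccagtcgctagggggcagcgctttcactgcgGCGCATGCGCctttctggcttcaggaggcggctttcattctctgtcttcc
Atp5h: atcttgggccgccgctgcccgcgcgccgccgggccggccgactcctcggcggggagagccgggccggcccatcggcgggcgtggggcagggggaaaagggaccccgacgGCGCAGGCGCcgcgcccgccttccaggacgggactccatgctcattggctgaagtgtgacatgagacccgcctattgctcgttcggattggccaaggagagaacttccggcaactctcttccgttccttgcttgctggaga
Searched on both strands from 250 bases before to 50 bases after the start, and with each motif counted on its own, this motif was in 8 of the 33 RefSeq promoters that matched 30 members (24.2%), against 1512 of 32851 promoters of all genes (4.60%). The other members with it were Atp5c1, Atp5g2, Atp5g3, Atp5o and Uqcrc1. A YY1 motif, AANATGGC, was in 5 member promoters (15.2%, against 6.05% of all promoters), a GABP motif, ACCGGAAG, in 1 (3.03%, against 2.30%), and an oestrogen-related receptor motif, TCAAGGTCA, in 1 (3.03%, against 0.423%). A match describes these letters and does not show binding.

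Library totals ran from 9890218 estimated counts, in siCOX7A2L library 3, to 17077826, in siCTRL library 3. Cox7a2l, the targeted gene, had 6.69, 5.86 and 3.59 CPM in siCOX7A2L libraries 1, 2 and 3, against 57.9, 59.4 and 58.9 CPM in siCTRL libraries 1, 2 and 3, a log2 fold change of -3.44 (SE 0.19). CPM values are counts scaled to library depth with TMM factors, and the log2 fold change is siCOX7A2L over siCTRL with the replicate number as a block. Both replicate 3 libraries stood apart from replicates 1 and 2. Of the markers for the labelled cell type, 6 of 6 myoblast markers passed the count filter, with summed levels of 1352 to 2999 CPM in siCOX7A2L libraries and 1385 to 1987 CPM in siCTRL libraries. The 6 myotube markers summed to 6.88 to 324 CPM in siCOX7A2L libraries and 8.58 to 136 CPM in siCTRL libraries, with the highest sums in replicate 3, and Acta1, the actin of skeletal muscle fibres, rose (log2 fold change 1.14, adjusted p = 0.0407). Of the 5 tested myotube markers 4 lay above 0 and 1 below, with a median log2 fold change of 1.14. By edgeR's test 3 of them had an unadjusted p under 0.05, where 17.7% of all genes did, and Acta1 was the 1 called (0.726% of all genes were). It was not called without the replicate block, with a term for replicate 3, with library size alone, by limma on log2 TPM or without the replicate 3 libraries. DESeq2 also called Myh3, where 4.11% of all genes were called. The fit with no count filter also called Myh3 and Tnnt3 (4.7% of all genes). That without the replicate 2 libraries also called Myh3, Myog and Tnnt3 (7.87%). Of the 6 fibroblast markers, which summed to 52.0 to 86.4 CPM in siCOX7A2L libraries and 50.6 to 61.3 CPM in siCTRL libraries, Dcn rose (1.72, adjusted p = 0.0419). Dcn was the 1 called of the 4 tested fibroblast markers, where 0.726% of all genes were. Of the 4, 2 lay above 0 and 2 below, with a median log2 fold change of 0.01. Dcn was not called without the block, with library size alone, by limma or without the replicate 3 libraries. Adipocyte, endothelial and macrophage markers stayed at or below 3.19 summed CPM in every library. The list for RNA quality and depletion, Lars2, mt-Rnr1 and mt-Rnr2, summed to 10698 to 11597 CPM in siCOX7A2L libraries and 6949.5 to 18009.9 CPM in siCTRL libraries, the lowest sum being that of siCTRL library 3. In the edgeR fit of all 6 libraries with the count filter and the replicate block, none of its 3 genes was called (0.726% of all genes were). At an unadjusted p under 0.05 that fit had 1 of the 3, where 17.7% of all genes were. DESeq2 called mt-Rnr2 (4.11% of all genes were), as did edgeR with no count filter (4.7%) and without the replicate 2 libraries (7.87%). Lars2 was called by edgeR without the replicate 3 libraries (0.339% of all genes were). In bulk RNA, fewer cells of a type and less RNA per cell cannot be told apart.

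No transcript of a nuclear subunit passed the test for a difference after the Cox7a2l siRNA, and the largest fitted differences were in small subunits of the 3 complexes. Of the 39 members, 35 passed the filter on low counts and were tested among 15022 genes. None of the 35 had an adjusted p under 0.05 by edgeR's quasi-likelihood test with Benjamini-Hochberg adjustment, where 0.726% of all genes did (0.433% higher and 0.293% lower). At an unadjusted p under 0.05 there were 4 members, Uqcr10, Uqcrq, Uqcrfs1 and Cox8a, or 11.4% of the members against 17.7% of all genes. DESeq2 with the same block called 0 members, where it called 4.11% of all genes. At an unadjusted p under 0.05 DESeq2 had 5 members, and 1975 genes in all. Limma on log2 TPM called 0 (0.0599% of all genes). It had 1 member at an unadjusted p under 0.05, where 1973 of 15022 genes were. The fit without the block called 0 (0.0133% of all genes), as did library size alone (0.386%), a term for replicate 3 (1.31%) and leaving out replicate 1 (2.45%) or replicate 3 (0.339%). With no count filter 3 members were called (Cox6a1, Cox7c and Uqcrq, where 4.7% of all genes were called), and without the replicate 2 libraries 4 were (those 3 and Uqcr10, where 7.87% of all genes were). In the authors' deposited table, 0 of the 35 members had an adjusted p under 0.05, where 6.34% of the genes with one did, and the members' values ran from 0.0935 to 0.993. The 95% intervals of the fold changes of the 35 members lay between 0.751-fold and 2.10-fold.

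By direction, 29 of the 35 fitted log2 fold changes were above 0, against 51.1% of all genes tested. With library size as the only scaling 22 of the 35 were above 0, and on log2 TPM 10 were, while the median of all genes was 0.01 with TMM scaling, -0.04 with library size and -0.24 on log2 TPM. Set against the median of all genes under each scaling, 27, 27 and 26 of the 35 lay above it. All 10 tested complex IV members lay above 0, as did 7 of 9 of complex III and 12 of 15 of complex V, while the single cytochrome c gene lay below 0. Complex IV had a median log2 fold change of 0.17, complex III of 0.05 and complex V of 0.06, beside 0.01 for all genes. With library size alone 9 complex IV, 5 complex III and 8 complex V members lay above 0, and on log2 TPM 3, 3 and 4 did. Pair by pair, the complex IV median was 0.08, 0.05 and 0.33 for replicates 1, 2 and 3, the complex III median 0.20, 0.02 and 0.27, and the complex V median 0.03, -0.04 and 0.10. The pair differences are of log2 CPM with a prior count of 2. In the replicate 3 pair 11 of 35 members (31.4%) were more than 0.5 higher on the log2 scale, as were 20.1% of all genes, and none was more than 0.5 lower, as 19.7% of all genes were. The replicate 1 pair had 2 members beyond 0.5 in either direction, where 15.8% of all genes were, and the replicate 2 pair had 0, where 16.3% were.

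All 3 pairs were higher for 11 members, where 21.2% of all genes had that pattern, and lower for 2 members, Atp5b and Atp5g1, where 20.8% of all genes had it. The siCOX7A2L and siCTRL libraries did not overlap for 5 members, Uqcrq, Uqcr10, Cox8a, Cox6a1 and Ndufa4, each with siCOX7A2L higher, a pattern of 7.95% of all genes. No member had every siCOX7A2L library lower, a pattern of 7.64% of all genes. These counts are on TMM-scaled CPM: with library size alone the groups of Ndufa4 overlapped. On TPM, Uqcrq was the 1 member with every siCOX7A2L library higher, while Cyc1 and Atp5g1 had every siCOX7A2L library lower. The shares of all genes with these patterns were counted on TMM-scaled CPM only. On log2 TPM the median log2 fold change of all genes was -0.24.

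**Figure D1:**
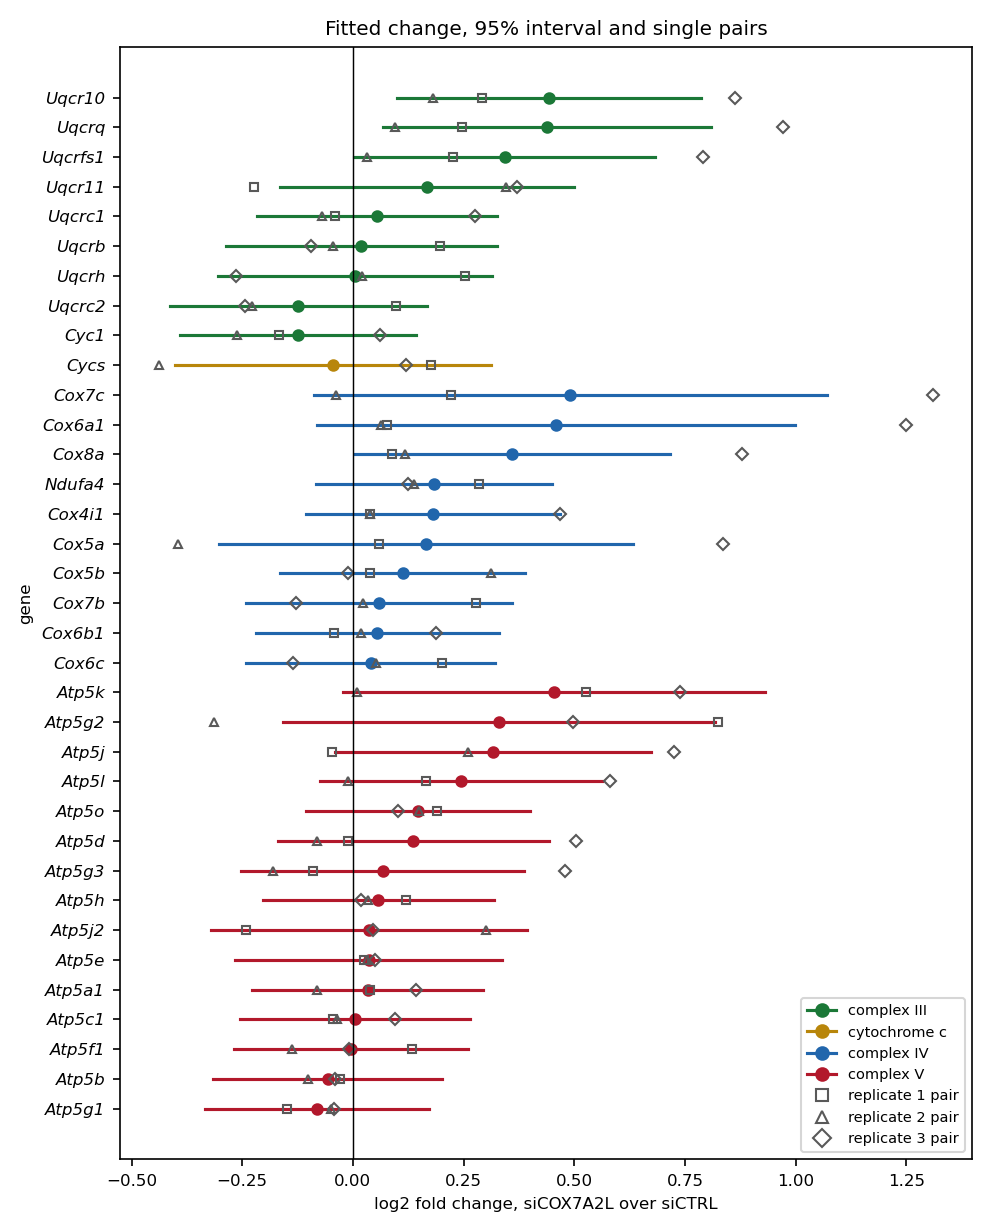
Log2 fold change of siCOX7A2L over siCTRL (x axis) for the 35 tested members (y axis), with filled circles for the fitted value, lines for its 95% interval and open symbols for the 3 replicate pairs. The replicate 3 pair of Cox7c lies at 1.31 and that of Cox6a1 at 1.25, to the right of their other pairs.

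In complex III, the catalytic subunits are cytochrome b, encoded by mitochondrial DNA, cytochrome c1 (Cyc1) and the Rieske iron-sulfur protein (Uqcrfs1). Cyc1, which hands electrons to cytochrome c, had 184, 181 and 169 CPM in siCOX7A2L libraries, against 207, 217 and 162 CPM in siCTRL libraries. Its log2 fold change of -0.12 (SE 0.12, 95% interval -0.39 to 0.14, adjusted p = 0.642) was the lowest of the complex, and the groups overlapped. Uqcrfs1 had 123, 108 and 70.9 CPM in siCOX7A2L libraries, against 105, 106 and 40.9 CPM in siCTRL libraries. Both replicate 3 libraries were below the other 4 for Uqcrfs1, and siCOX7A2L was the higher library in each pair, with a log2 fold change of 0.34 (SE 0.15, 95% interval 0.00 to 0.68, adjusted p = 0.278). The core proteins Uqcrc1 and Uqcrc2, which face the mitochondrial matrix, had log2 fold changes of 0.05 and -0.12.

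Among the small accessory subunits of complex III, Uqcr10 (ENSMUSG00000059534.9) had 63.2, 63.8 and 70.4 CPM in siCOX7A2L libraries, against 51.6, 56.2 and 38.7 CPM in siCTRL libraries. Every siCOX7A2L library was above every siCTRL library, and its log2 fold change of 0.44 (SE 0.16, 95% interval 0.10 to 0.79, adjusted p = 0.177) was the highest of the complex. Uqcrq (ENSMUSG00000044894.15) had 93.1, 88.2 and 164 CPM in siCOX7A2L libraries, against 78.4, 82.6 and 83.5 CPM in siCTRL libraries. The groups did not overlap either, but siCOX7A2L library 3 stood far above the other 2 libraries of its group, and the pair differences were 0.25, 0.09 and 0.97 for replicates 1, 2 and 3. The log2 fold change of Uqcrq was 0.44 (SE 0.17, 95% interval 0.07 to 0.81, adjusted p = 0.208). Uqcr11, which with Uqcrq had the largest TPM of the complex, had 42.7, 63.5 and 89.4 CPM in siCOX7A2L libraries, against 49.9, 49.9 and 69.1 CPM in siCTRL libraries. Its groups overlapped, with a log2 fold change of 0.17 (SE 0.15, 95% interval -0.17 to 0.50, adjusted p = 0.611). The remaining accessory subunits, Uqcrb and the hinge protein Uqcrh, had log2 fold changes of 0.02 and 0.00.

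Cycs, the somatic cytochrome c that carries electrons between complexes III and IV, had 27.2, 21.5 and 39.8 CPM in siCOX7A2L libraries, against 24.0, 29.2 and 36.6 CPM in siCTRL libraries. The 3 pairs went in different directions (0.18, -0.44 and 0.12), and the log2 fold change was -0.04 (SE 0.16, 95% interval -0.40 to 0.31, adjusted p = 0.917). Per transcript length, Cycs was the lowest of the 35 tested members by mean, at 8.08 TPM in siCOX7A2L libraries and 10.3 TPM in siCTRL libraries. Its sequence is partly shared with a copy, Gm10053, so that its level is uncertain.

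In complex IV, Cox7c (ENSMUSG00000017778.15), a small nuclear subunit, had 118, 99.9 and 143 CPM in siCOX7A2L libraries, against 101, 103 and 57.5 CPM in siCTRL libraries. Its log2 fold change of 0.49 (SE 0.25, 95% interval -0.09 to 1.07, adjusted p = 0.354) was the highest of the 35 members, and the pair differences were 0.22, -0.04 and 1.31 for replicates 1, 2 and 3. The replicate 3 pair held most of the difference, since siCTRL library 3 was the lowest library and siCOX7A2L library 3 the highest. Cox6a1 (ENSMUSG00000041697.9), the isoform of subunit 6A found outside heart and muscle fibres, had 193, 189.8 and 329 CPM in siCOX7A2L libraries, against 183, 182 and 138 CPM in siCTRL libraries. Its groups did not overlap, and the pair differences of 0.08, 0.06 and 1.25 again had the replicate 3 pair apart, with a log2 fold change of 0.46 (SE 0.23, 95% interval -0.08 to 1.00, adjusted p = 0.352). Cox8a (ENSMUSG00000035885.6), the ubiquitous isoform of subunit 8, had 197, 202 and 235 CPM in siCOX7A2L libraries, against 185, 186 and 127 CPM in siCTRL libraries. The groups did not overlap, siCTRL library 3 was the lowest, and the log2 fold change was 0.36 (SE 0.16, 95% interval 0.00 to 0.72, adjusted p = 0.277). Without both replicate 3 libraries, 0 of the 35 members had an unadjusted p under 0.05 by edgeR's test, where 2070 of 15053 genes did. The median log2 fold change of complex IV was then 0.10.

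Ndufa4, a subunit first assigned to complex I and later found in complex IV, had 92.3, 89.5 and 97.6 CPM in siCOX7A2L libraries, against 75.8, 81.3 and 89.5 CPM in siCTRL libraries. Its groups did not overlap, its pair differences of 0.28, 0.14 and 0.12 were each above 0, and its log2 fold change was 0.18 (SE 0.12, 95% interval -0.08 to 0.45, adjusted p = 0.466). Cox4i1, the ubiquitous isoform of subunit 4, had 136, 129 and 158 CPM in siCOX7A2L libraries, against 132, 126 and 115 CPM in siCTRL libraries. Each Cox4i1 pair was higher in siCOX7A2L, although the groups overlapped, with a log2 fold change of 0.18 (SE 0.13, 95% interval -0.11 to 0.47, adjusted p = 0.509). Cox6c had the lowest log2 fold change of the complex, 0.04 (SE 0.13, 95% interval -0.24 to 0.32, adjusted p = 0.905), from 78.5, 75.5 and 81.2 CPM in siCOX7A2L libraries, against 68.3, 72.8 and 89.1 CPM in siCTRL libraries, and its groups overlapped. Cox6b1, the ubiquitous isoform of subunit 6B, had 65.7, 69.3 and 99.3 CPM in siCOX7A2L libraries, against 67.7, 68.4 and 87.1 CPM in siCTRL libraries. Its groups overlapped, and its log2 fold change was 0.05. The other 3 tested members, Cox5a, Cox5b and Cox7b, had log2 fold changes of 0.16, 0.11 and 0.06.

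Isoforms of complex IV known from other tissues were at or near 0 in both groups. Cox6a2, the heart and skeletal muscle isoform of subunit 6A, had 3, 0 and 1 counts in siCOX7A2L libraries and 0, 0 and 3 in siCTRL libraries. Cox8b, the isoform of subunit 8 in the same tissues, had 0, 0 and 4 counts in siCOX7A2L libraries and 0, 0 and 2 in siCTRL libraries. Both muscle isoforms thus lay at or near the floor, where no difference can be read. Cox4i2, the lung isoform of subunit 4, had 0, 0 and 2 counts in siCOX7A2L libraries and 0 in each siCTRL library. Cox6b2, the testis isoform, had 0, 2 and 9 counts in siCOX7A2L libraries and 1, 1 and 0 in siCTRL libraries. These 4 genes did not pass the count filter, none was called in the fit with no filter, and 3 counts correspond to 0.190, 0.211 and 0.337 CPM in siCOX7A2L libraries 1, 2 and 3 and 0.198, 0.206 and 0.174 CPM in siCTRL libraries 1, 2 and 3. Of the TPM of each isoform pair, the lowest share in a library, rounded, was 99.9% for Cox4i1 and Cox6a1, 99.1% for Cox6b1 and 99.6% for Cox8a.

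In complex V, the F1 head is built mainly of the alpha subunit Atp5a1 and the catalytic beta subunit Atp5b, which had the largest TPM of the complex. Atp5b had 1388, 1344 and 999 CPM in siCOX7A2L libraries, against 1416, 1441 and 1027 CPM in siCTRL libraries. Both replicate 3 libraries were lower than the other 4, every pair was slightly lower in siCOX7A2L, and the log2 fold change was -0.06 (SE 0.12, 95% interval -0.31 to 0.20, adjusted p = 0.845). Atp5a1 had 863, 785 and 627 CPM in siCOX7A2L libraries, against 841, 831 and 568 CPM in siCTRL libraries. It showed the same lower level in replicate 3 in both groups, with a log2 fold change of 0.03 (SE 0.12, 95% interval -0.23 to 0.29, adjusted p = 0.916). The central stalk genes Atp5c1, Atp5d and Atp5e had log2 fold changes of 0.00, 0.14 and 0.04.

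Of the peripheral stalk, which holds the F1 head against the membrane part, Atp5j (coupling factor 6) had 40.4, 44.3 and 85.9 CPM in siCOX7A2L libraries, against 41.7, 37.0 and 51.9 CPM in siCTRL libraries. The groups overlapped, and the log2 fold change was 0.32 (SE 0.16, 95% interval -0.04 to 0.67, adjusted p = 0.340). The other stalk genes, Atp5f1, Atp5h and Atp5o (the oligomycin sensitivity-conferring protein), had log2 fold changes of -0.00, 0.06 and 0.15. In the membrane part, Atp5k (ENSMUSG00000050856.17, subunit e) had 4.82, 5.06 and 21.7 CPM in siCOX7A2L libraries, against 3.30, 5.02 and 12.9 CPM in siCTRL libraries. Its replicate 3 libraries were the 2 highest, and its log2 fold change of 0.45 (SE 0.22, 95% interval -0.02 to 0.93, adjusted p = 0.304) was the highest of the complex. Atp5l (subunit g) had 72.2, 63.6 and 86.0 CPM in siCOX7A2L libraries, against 64.4, 64.1 and 57.5 CPM in siCTRL libraries. The groups overlapped, with a log2 fold change of 0.24 (SE 0.14, 95% interval -0.07 to 0.56, adjusted p = 0.412), and Atp5j2 (subunit f) had one of 0.04.

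Subunit c, which forms the rotating ring in the membrane, is made from 3 genes that encode the same mature protein. Atp5g1 had 135, 137 and 162 CPM in siCOX7A2L libraries, against 149.9, 142 and 166 CPM in siCTRL libraries. Each pair was lower in siCOX7A2L although the groups overlapped, and the log2 fold change of -0.08 (SE 0.11, 95% interval -0.33 to 0.17, adjusted p = 0.765) was the lowest of complex V. Atp5g3 had 155, 145 and 152 CPM in siCOX7A2L libraries, against 165, 164 and 109 CPM in siCTRL libraries, with a log2 fold change of 0.07. Atp5g2 had 9.02, 10.4 and 29.4 CPM in siCOX7A2L libraries, against 5.01, 12.9 and 20.8 CPM in siCTRL libraries. Its groups overlapped, and its log2 fold change was 0.33 (SE 0.22, 95% interval -0.16 to 0.82, adjusted p = 0.475). Of the summed TPM of the 3 genes, Atp5g1 made 51.0% ± 1.10 in siCOX7A2L libraries and 53.5% ± 5.97 in siCTRL libraries (SD, n = 3 each). Atp5g3 made 44.3% ± 3.70 in siCOX7A2L libraries and 42.6% ± 8.05 in siCTRL libraries, and Atp5g2 made 4.69% ± 2.80 in siCOX7A2L libraries and 3.90% ± 2.47 in siCTRL libraries. The difference of each share was smaller than the SD of at least 1 group. These shares are uncertain, since a copy of Atp5g2, Gm10175, held 92.3% of the joint counts of Atp5g2 and the copy.

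**Figure D2:**
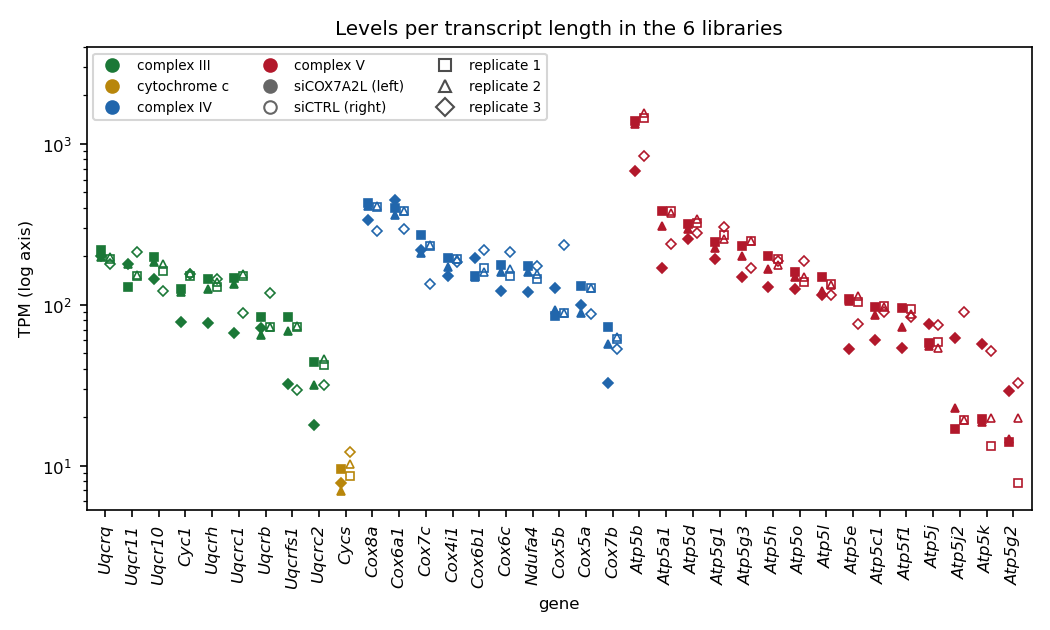
TPM (log axis) of the 35 tested members in each of the 6 libraries, with siCOX7A2L as filled symbols on the left and siCTRL as open symbols on the right of each gene, and genes sorted by level within complexes. Atp5b stood highest (mean 1125 TPM in siCOX7A2L libraries and 1280 TPM in siCTRL libraries) and Cycs lowest (mean 8.08 TPM in siCOX7A2L libraries and 10.3 TPM in siCTRL libraries).

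Per complex, the nuclear subunits of complex IV summed to 1089, 1052 and 1447 CPM in siCOX7A2L libraries, against 1006, 1017 and 966 CPM in siCTRL libraries. Each siCOX7A2L library was above each siCTRL library, with pair ratios of 1.08, 1.03 and 1.50. Complex III summed to 945, 918 and 898 CPM in siCOX7A2L libraries, against 918, 949 and 721 CPM in siCTRL libraries, and its groups overlapped, with pair ratios of 1.03, 0.968 and 1.24. Complex V summed to 3498, 3347 and 3037 CPM in siCOX7A2L libraries, against 3487, 3525 and 2765 CPM in siCTRL libraries. Its pair ratios were 1.00, 0.950 and 1.10, and the replicate 3 library was the lowest of each group. The mean log2 ratio over the 3 pairs was 0.25 ± 0.29 for complex IV, 0.10 ± 0.19 for complex III and 0.02 ± 0.11 for complex V (SD, n = 3 pairs), each smaller than its SD. No test was run on these sums, since an exact permutation test of 3 libraries against 3 cannot give a two-sided p below 0.1. On summed TPM the pair ratios were 1.07, 0.940 and 0.987 for complex IV, 1.05, 0.947 and 0.799 for complex III and 0.983, 0.870 and 0.782 for complex V. The median log2 fold change of all genes was -0.24 on log2 TPM and 0.01 with TMM scaling. One gene row with no symbol took 36.9% to 53.6% of the TPM of a library, and 11.1% of the counts in siCOX7A2L library 3 against 5.81% to 7.57% in the other 5. Its part in the TPM ratios was not tested.

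The subunits that mitochondrial DNA encodes for the same complexes had another pattern. The 3 of complex IV summed to 4344, 4223 and 7688 CPM in siCOX7A2L libraries, against 4500, 4542 and 11929 CPM in siCTRL libraries. Cytochrome b of complex III had 405, 432 and 1813 CPM in siCOX7A2L libraries, against 366, 359 and 2884 CPM in siCTRL libraries. The 2 of complex V summed to 129, 116 and 1690 CPM in siCOX7A2L libraries, against 133, 127 and 3115 CPM in siCTRL libraries. Both replicate 3 libraries were thus far above the other 4 for each complex, and siCTRL library 3 was the highest. As a ratio to the nuclear sum of the same complex, complex IV stood at 3.99, 4.01 and 5.31 in siCOX7A2L libraries and 4.47, 4.47 and 12.4 in siCTRL libraries. None of the 6 mitochondrially encoded genes had an adjusted p under 0.05 between the siRNAs by edgeR's test with the replicate block, where 0.726% of all genes did. At an unadjusted p under 0.05 there was 1, where 17.7% of all genes were. By the same test mt-Co3 was called without the replicate 1 libraries (2.45% of all genes were) and without the replicate 2 libraries (7.87%).

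**Figure D3:**
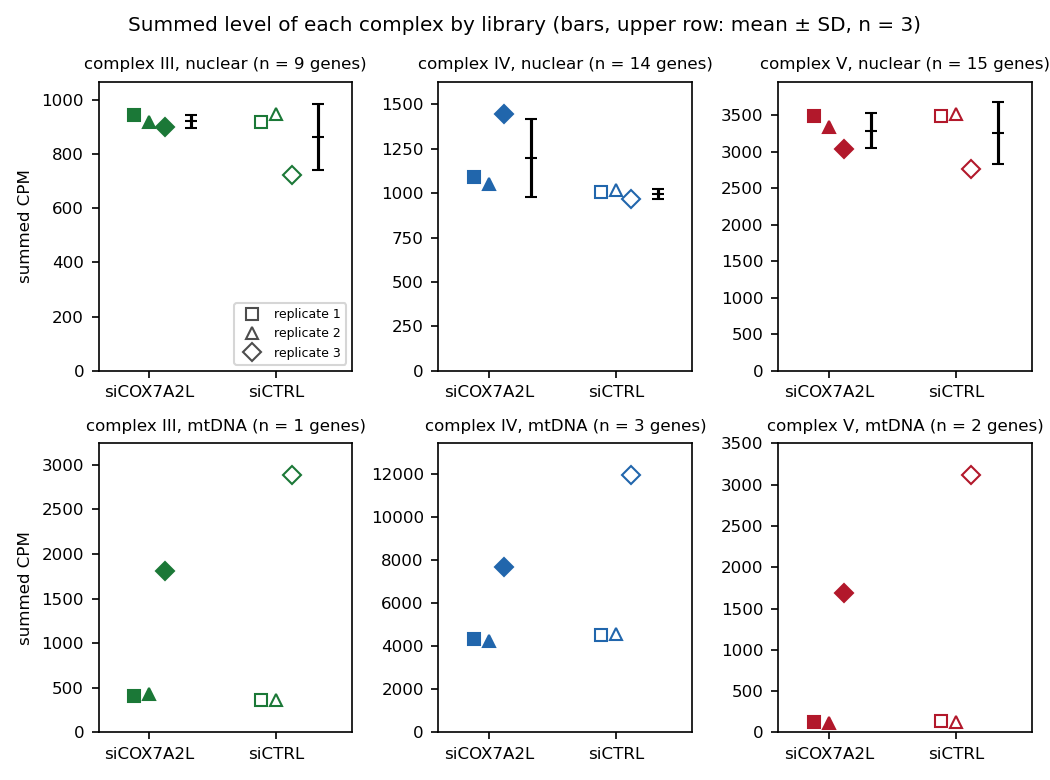
Summed CPM of the nuclear subunits (upper row, bars give mean ± SD, n = 3) and of the mitochondrially encoded subunits (lower row) of complexes III, IV and V in each library, siCOX7A2L filled and siCTRL open. Nuclear complex IV sums reached 1447 CPM in siCOX7A2L library 3, and the mitochondrially encoded sums were highest in the replicate 3 libraries.

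More members differed between replicate 3 and the other replicates than between the siRNAs. In a comparison of replicate 3 against replicates 1 and 2 with the siRNA group in the model, added after the data were seen, 15 of the 35 members (42.9%) had an adjusted p under 0.05 by edgeR's test, where 33.1% of all genes did. The 10 higher members (17.6% of all genes were higher) included Atp5k at 1.89, Atp5j2 at 1.85, Atp5g2 at 1.42, Cox5b at 1.13 and Atp5j at 0.72 on the log2 scale. Uqcr11, Uqcrb, Cycs, Cox6b1 and Atp5o made up the 10, between 0.30 and 0.61. The 5 lower members (15.5% of all genes were lower) were Uqcrfs1 at -1.03, Uqcrc1 at -0.68, Atp5e at -0.50, Atp5a1 at -0.48 and Atp5b at -0.46. Atp5k, Atp5j2 and Atp5g2 of the membrane part of complex V were thus among the higher ones, as were Atp5j and Atp5o of the peripheral stalk. Of the membrane part, Atp5g1 (0.22), Atp5l (0.10) and Atp5g3 (-0.28) were not called. Of the peripheral stalk, Atp5f1 (-0.30) and Atp5h (-0.26) lay below 0 and were not called. Atp5o was not called with library size alone, with no count filter, by DESeq2 or with any siCTRL library left out. The alpha and beta subunits of the F1 head were among the lower ones, while Atp5c1 (-0.12) and Atp5d (-0.03) of the central stalk were not called. Cox5b, a zinc-binding subunit of complex IV, had 66.2, 81.5 and 151 CPM in siCOX7A2L libraries, against 64.4, 65.6 and 152 CPM in siCTRL libraries, and Atp5j2 had 10.6, 14.6 and 45.4 CPM in siCOX7A2L libraries, against 12.6, 11.8 and 43.9 CPM in siCTRL libraries. For both genes the replicate 3 libraries of the 2 groups lay together, well above the other 4. Of the 15 members, 7 passed under each setting tried: Atp5a1, Atp5b, Atp5j2, Atp5k, Cox5b, Uqcrc1 and Uqcrfs1. Without siCOX7A2L library 3 there were 14 members, of which 9 were among the 15. Both the myotube markers and the mitochondrially encoded subunits were highest in replicate 3, and their part in these differences was not tested.

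The siRNA difference itself was set against replicate 3 in an interaction test, also added after the data were seen. None of the 35 members passed by edgeR's test (0.0799% of all genes did), the lowest adjusted p being 0.0921 for Cox6a1, and 12 members had an unadjusted p under 0.05, where 17.5% of all genes did. Cox7c and Cox6a1 were lower in replicate 3 among siCTRL libraries and higher in it among siCOX7A2L libraries.

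**Figure D4:**
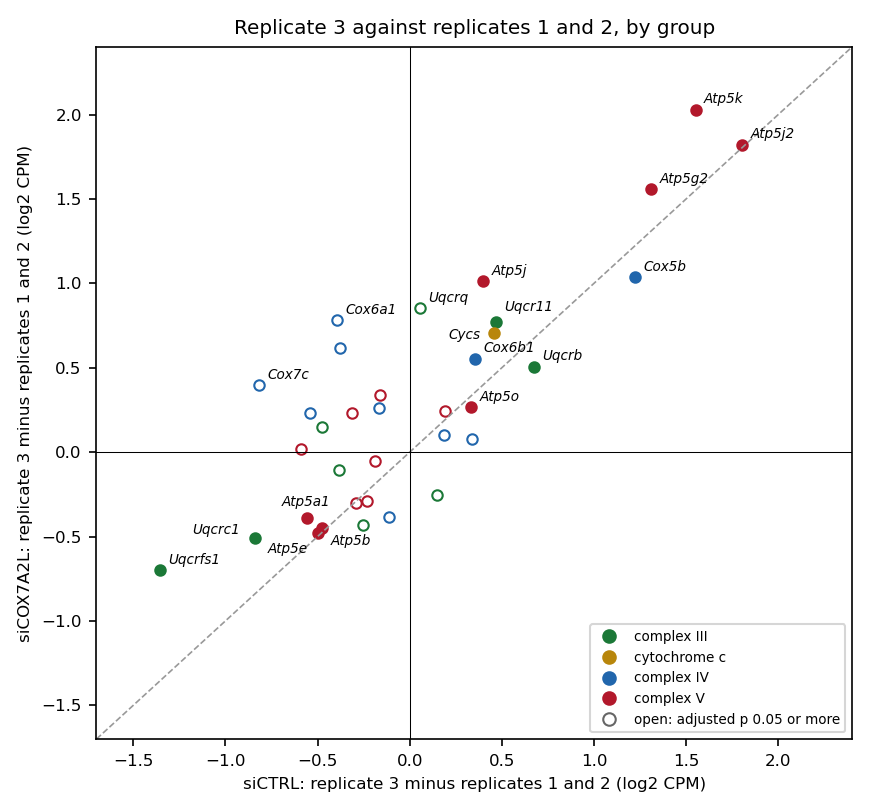
Difference of replicate 3 from the mean of replicates 1 and 2, in log2 CPM with 0.5 CPM added, in siCOX7A2L (y axis) and in siCTRL (x axis) for the 35 tested members, with filled points for an adjusted p under 0.05 over both groups and a dashed line of equal values. Atp5k, Atp5j2, Atp5g2 and Cox5b lie high in both groups, and Cox6a1 and Cox7c lie above 0 in siCOX7A2L and below 0 in siCTRL.

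Many of these genes have processed copies elsewhere in the genome, and reads can be split among them. Of the 35 tested members, 10 shared at least 20% of their transcript words of 31 bases with transcripts of other genes, up to 69.6% for Atp5l, 54.3% for Uqcrb and 46.9% for Atp5h. For 8 of the 10, the copies that shared at least 20% held under 1% of the summed counts or there were none. The exceptions were Atp5g2, whose copy Gm10175 held 92.3% of their joint counts, and Cycs, whose copy Gm10053 held 49.5%. Gm10175 had a log2 fold change of 0.22 (adjusted p = 0.466) and Gm10053 one of -0.03 (adjusted p = 0.936). The levels of Atp5g2 and Cycs are therefore uncertain. Not scaled to library depth, the joint counts of Atp5g2 and Gm10175 were 1889, 2057 and 3309 in siCOX7A2L libraries and 1881, 1947 and 4193 in siCTRL libraries. These joint counts give no direction for the replicate 3 pair, since siCOX7A2L library 3 held 9890218 counts in all and siCTRL library 3 held 17077826.

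Most of these subunits are small proteins with short transcripts. The 22 members with a coding transcript of up to 1000 bases had median pair differences of 0.10, 0.04 and 0.42 for replicates 1, 2 and 3, beside 0.01, 0.02 and 0.18 for the 625 tested genes of that length. The 13 longer members had 0.04, -0.08 and 0.10, beside -0.00, -0.01 and 0.02 for 11715 longer genes. In the replicate 3 pair, short transcripts thus had the higher medians among all genes as well as among the members. The 8 members with the NRF-1 motif in a promoter had a median log2 fold change of 0.11, and the 20 tested members without it, among those matched to a promoter, had 0.12.

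In the edgeR fit with the replicate block, 0.726% of all genes tested had an adjusted p under 0.05 and 17.7% an unadjusted one. Of all genes, 51.1% lay above 0. Among other respiratory chain genes, 0 of 37 tested nuclear subunits of complex I had an adjusted p under 0.05. Of the 37, 6 had an unadjusted p under 0.05 and 35 lay above 0, with a median log2 fold change of 0.19. None of the 4 complex II subunits passed either, nor did any at an unadjusted p under 0.05, with a median of -0.17. Assembly factors gave 0 of 5 for complex III, 0 of 21 for complex IV and 0 of 3 for complex V, with 1, 3 and 2 at an unadjusted p under 0.05 and medians of 0.11, 0.13 and -0.31. Of the 2 tested genes of the Cox7a family, only the targeted Cox7a2l passed, and Cox7a2 had a log2 fold change of -0.22 (adjusted p = 0.471). Of 9 tested regulators of respiratory chain genes, Nrf1 among them, 0 passed and 1 had an unadjusted p under 0.05, with a median of -0.09. A further 4 tested subunits and isoforms of the 3 complexes gave 0 as well and 1 at an unadjusted p under 0.05, with a median of 0.06.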

How the data were processed

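RNA-seq was measured in 6 libraries of C2C12 cells, 3 siCOX7A2L and 3 siCTRL, grouped by the labels. Tools named in the submitters' processing notes are Salmon 0.13.1, Trim Galore 0.6.4 and DESeq2 1.30.1, with the build mm39; which annotation was used, and how transcripts were summed to genes, is not given in the sources used here. Strand was marked by dUTP per the labels' protocols. The authors deposited per-gene estimated counts with no scaling to depth, and also TPM values, scaled to transcript length and library. The deposited result table of the authors holds, per the file headers, normalised counts (a scaled signal), log2 fold changes and p-values; the model behind it is not stated there.

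Gene identifiers without versions were used to look up symbols, which matched 97.6% of 52740 gene rows. No mm39 coordinates are given, because the reference used here is another build; promoters are RefSeq sequences on GRCm38.p6. Members were listed by name, and they and the other lists were drawn up with earlier results of these data known. Estimated counts were rounded to whole numbers (the design foresaw counts) for edgeR 4.0.16 (R 4.3.3), with TMM factors, the expression filter by group, robust quasi-likelihood fits on all genes, and Benjamini-Hochberg adjustment at 0.05. The replicate number was a block because the rule for this gene group names it. Deviations from the group means of libraries with the same number correlated at 0.53, 0.45 and 0.67, each above 0.1, though no label says what a number shares, and libraries 1 and 2 also correlated across numbers (up to 0.44). Libraries of a group differed by more than counting noise (median chi-square 0.838 for siCTRL libraries 1 and 2, the most alike, against 0.455). Pair differences used a prior count of 2.

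Alternatives were no block, a term for replicate 3, other scalings, no filter, DESeq2 1.42.0, limma 3.58.1 on log2(TPM + 0.1), and leaving out each replicate. Totals of 9890218 to 17077826 counts limit low genes most in siCOX7A2L library 3, and floors of 3 counts cover counting error only. Values in every library are given for the extremes of fold change, the 2 largest by TPM and the 3 smallest p of each complex, the isoform groups, Cycs, Ndufa4 and Cox7a2l; Cox5b and Atp5j2 were added after their values were seen. Of the other lists, genes with an adjusted p under 0.05 in the fit with the replicate block are named. For the myotube, RNA quality and mitochondrially encoded lists, genes called under other settings are named too. Cox7a2 was added as the nearest relative of the target.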

Additional observations from a re-analysis of the deposited data

How the results depend on the processing

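The members called between the siRNAs numbered 0 in the fit with the replicate block, 3 with no expression filter and 0 to 4 when a replicate was left out. Without the replicate block, whose numbers the labels do not explain, 0 members and 2 genes in all were called, against 109 genes with it. All genes called numbered 197 with a term for replicate 3, 58 with library size alone, 1257 with no filter, 493 by DESeq2, 9 by limma on TPM, and 51 to 1210 when a replicate was left out. On summed TPM the mean log2 ratio over pairs was -0.11 for complex III, -0.0035 for complex IV and -0.19 for complex V, against 0.10, 0.25 and 0.02 on CPM. These ratios are not set against all genes, whose median log2 fold change was -0.24 on log2 TPM and 0.01 with TMM scaling. When a replicate was left out, the median log2 fold change ran from 0.07 to 0.10 for complex III, 0.10 to 0.22 for complex IV and 0.03 to 0.10 for complex V. When a single library was left out, members called in replicate 3 numbered 11 to 17.

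Some fold changes of members not called turned sign. With library size alone these were Uqcrb (-0.027), Uqcrh (-0.040), Cox6c (-0.0056), Atp5a1 (-0.012), Atp5c1 (-0.041), Atp5e (-0.0078) and Atp5j2 (-0.014). With no filter Uqcrh was -0.0049 and Atp5c1 -0.0055, and by DESeq2 Uqcrh was -0.0031 and Atp5c1 -0.0035. On log2 TPM, relative to the median of all genes, Uqcrh was -0.056, Cox5b -0.054, Atp5a1 -0.017, Atp5b 0.033 and Atp5c1 -0.011. Without the replicate block Atp5f1 was 0.00022. When a replicate was left out, values crossed 0 for Uqcrb (-0.073 to 0.075), Uqcrc1 (-0.057 to 0.11), Uqcrh (-0.12 to 0.13), Cox5a (-0.17 to 0.44), Cox6b1 (-0.015 to 0.10), Cox6c (-0.044 to 0.12), Cox7b (-0.055 to 0.15), Cycs (-0.16 to 0.14), Atp5a1 (-0.024 to 0.081), Atp5c1 (-0.043 to 0.027), Atp5d (-0.049 to 0.24), Atp5f1 (-0.076 to 0.054), Atp5g3 (-0.14 to 0.18) and Atp5j2 (-0.098 to 0.17). The causes were not tested. Depth limits the low members most, Atp5k, Atp5g2 and Atp5j2.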
